A study of Mus musculus with 13 samples.

Results

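The death receptors and adaptors examined here are 9 genes of the TNF receptor superfamily pathway, of 49585 genes in all: the receptors Eda2r, Tnfrsf10b, Fas, Tnfrsf1a and Tnfrsf1b, the ligand Tnfsf10, and the adaptors Fadd, Tradd and Ripk1. They were chosen by name, with earlier results of these data known. The estimated reads of all their transcripts with deposited estimates were summed per gene in each library. RNA was sequenced from oocytes of P5 CD-1 female mice, whose ovaries had been kept in culture overnight before irradiation with a caesium source. At 0.5 Gy there were 8 libraries, in duplicate for 0, 1 and 4 h and singly for 2.5 and 6 h, and at 0.2 Gy there was 1 library for each of these 5 times. The 0 h libraries, which carry the label of their dose, serve as the reference before damage. Replicate 1 of 0.5 Gy is labelled first generation, replicate 2 with the 2.5 and 6 h libraries second, and each 0.2 Gy library is of the third generation, so that dose and generation cannot be told apart. The labels do not say whether duplicates came from separate animals, so p-values measure the spread between libraries.

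Receptors of this family sit at the cell surface and are clustered by ligands of the TNF family. Those with a death domain, among them Fas, Tnfrsf10b (the receptor for TRAIL) and Tnfrsf1a (the receptor for TNF), recruit Fadd or Tradd inside the cell and can start a caspase cascade, while Ripk1 carries the signal towards NF-kB, apoptosis or necroptosis. Eda2r, the receptor for an isoform of ectodysplasin, and Tnfrsf1b belong to the same family and lack a death domain. Several of these receptors are known targets of p53, and in the resting oocyte the p53 family member that responds to DNA damage is TAp63α.

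The libraries held 15709549 to 30430104 estimated reads. Summed CPM (counts scaled to library size after TMM normalization) of 10 oocyte markers lay between 2399 and 3386, and none of these markers was at 0 in all libraries. The preparations also held other cells: 9 granulosa cell markers summed to 1223 to 2097 CPM, 7 stromal markers to 1951 to 3783, 5 red blood cell markers to 858.9 to 6179, 5 endothelial markers to 72.3 to 147.3 and 7 macrophage markers to 40.6 to 106.7. Granulocyte markers reached 443.5 CPM in 0 h replicate 2 of 0.5 Gy, the shallowest library, and 5.37 to 15.7 in the other 12. In such mixed RNA, fewer cells of a type and less RNA per cell cannot be told apart, and a gene's reads cannot be assigned to a cell type.

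Eda2r was the only one of the 9 genes called late after 0.5 Gy in edgeR's test, and its promoter window held letters of a TATA box, a CCAAT box and a GC box. The 250 bases before the RefSeq start site are shown for Eda2r and for Fas, which had higher values late but was called in DESeq2's Wald test alone, to set both windows side by side. They come from RefSeq on GRCm38.p6. The Eda2r window lies at chrX:97377210-97377459 on the minus strand and the Fas window at chr19:34290409-34290658 on the plus strand. Capitals mark exact matches on either strand to the TATA box (TATAAA), the CCAAT box or the GC box (GGGCGG).
Eda2r: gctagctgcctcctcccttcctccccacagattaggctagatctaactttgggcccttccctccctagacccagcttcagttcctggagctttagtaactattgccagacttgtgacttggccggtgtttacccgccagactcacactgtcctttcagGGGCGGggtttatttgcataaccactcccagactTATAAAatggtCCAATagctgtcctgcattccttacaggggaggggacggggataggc
Fas: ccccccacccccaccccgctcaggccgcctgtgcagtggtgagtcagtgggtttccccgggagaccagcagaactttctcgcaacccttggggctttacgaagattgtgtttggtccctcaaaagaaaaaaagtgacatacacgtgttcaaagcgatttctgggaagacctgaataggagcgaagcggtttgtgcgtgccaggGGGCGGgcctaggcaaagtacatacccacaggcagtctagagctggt
In Eda2r, the TATA box ended 53 bases before the start site, the CCAAT box 43 bases and the GC box 87 bases before it. In Fas there was a single match, a GC box that ended 42 bases before the start. Of 32817 promoter windows of the same length, 12.4% held the TATA box, 33.8% the CCAAT box and 32.7% the GC box. The TATA box was found in the Eda2r window alone among the 8 windows that matched 7 of the 9 genes. No exact match to a single copy of the p53 family binding consensus lay in these 8 windows, and 7.12% of all windows held one. A match here is a description of letters, and an absent match concerns this window only.

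Eda2r (ENSMUSG00000034457, GRCm38 chrX:97333840-97377216, minus strand) rose steeply after 0.5 Gy. Its CPM was 3.48 and 2.09 in the 0 h duplicates and 6.69 and 5.41 in those of 1 h. The 2.5 h library then reached 25.4, the 4 h duplicates 39.7 and 47.3, and the 6 h library 52.9. All 4 libraries from 2.5 h on lay above all 4 earlier ones, with no overlap. The late libraries averaged 41.3 ± 11.9 CPM and the early ones 4.42 ± 2.04 (SD, n = 4 each). These sides pool several time points, which are not replicates of a condition, so the SD includes change over time. The reads behind these values numbered 31 to 165 per early library and 677 to 1408 per late library.

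In edgeR's quasi-likelihood test of the late libraries (2.5, 4 and 6 h) against the early ones (0 and 1 h), 1 of the 9 genes was called. The split at 2.5 h was chosen after the authors' description of a major change from 2.5 h on in these same libraries. A call required a Benjamini-Hochberg adjusted p below 0.05 together with a change of more than 1 on the log2 scale in either direction. The share of all 22588 genes tested that was called was 0.128%, or 29 genes, all of them higher. The called gene was Eda2r, with a log2 fold change of 3.21 (SE 0.35, 95% interval 2.44 to 3.98), a 9.25-fold rise, at an adjusted p of 0.00362. Across the other settings its adjusted p lay between 6.3e-16 and 0.0327. Without 0 h replicate 2, the library with granulocyte markers, the log2 fold change was 2.99 at an adjusted p of 0.0111. Within the first generation the late minus early difference was 3.02 on the log2 CPM scale (1 library against 2), and within the second it was 3.54 (3 against 2). Red blood cell markers were highest in the 4 h duplicates, at 6022 and 6179 CPM, and stood at 2687 CPM at 6 h. The part of other cell types in the Eda2r values was not tested.

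Tnfrsf10b (ENSMUSG00000022074, chr14:69767472-69784411, plus strand), the receptor through which TRAIL signals death, had higher values late, though the change was not called in edgeR's test. It stood at 8.93 and 9.72 CPM in the 0 h duplicates, and at 20.4 and 11.3 in those of 1 h. The 2.5 h library held 27.0 CPM, the 4 h duplicates 25.4 and 39.1, and the 6 h library 32.0. The early and late libraries did not overlap, but 1 h replicate 1 lay closer to the late values than the other early libraries did. Late against early, the log2 fold change was 1.29 (SE 0.28, 95% interval 0.69 to 1.89), with an unadjusted p of 0.00056 and an adjusted p of 0.149 in edgeR's test. DESeq2's Wald test called the gene, at a log2 fold change of 1.09 and an adjusted p of 0.0029. With 1 h replicate 1 left out the gene passed the threshold in edgeR's test, at a log2 fold change of 1.62 and an adjusted p of 0.0443. Sequences of 30 bases, the read length in the labels, were shared with other genes for 12.0% of those in Tnfrsf10b transcripts, so part of its reads is uncertain. In Tnfrsf10b-201, the transcript with 92.5% of the gene's reads, 17.0% were shared. For Eda2r the share over all transcripts was 0%.

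Fas (ENSMUSG00000024778, chr19:34290666-34327772, plus strand), the receptor for Fas ligand, was low at first and higher from 4 h. In the 0 h duplicates it stood at 3.60 and 3.24 CPM and in the 1 h duplicates at 2.31 and 4.22. The 2.5 h library held 3.98 CPM, the 4 h duplicates 9.51 and 10.1, and the 6 h library 12.2. The 2.5 h library lay among the early ones in CPM, so the sides overlapped, while the 4 and 6 h libraries lay above every earlier library. Late against early, the log2 fold change was 1.41 (SE 0.38, 95% interval 0.59 to 2.23), with an adjusted p of 0.292 in edgeR's test, and it was not called there. DESeq2's Wald test called Fas (adjusted p 0.012). In CPM, the 2.5 h library already lay above all early libraries of 0.5 Gy for Eda2r and Tnfrsf10b, whereas for Fas it did not. In TPM, the 2.5 h library of Fas, at 1.14, lay above its highest early library of 1.06, so the early and late libraries did not overlap on that scale.

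Tnfrsf1a (ENSMUSG00000030341, chr6:125349362-125362484, plus strand), the main receptor for TNF, was the gene with the most reads of the 9. The 0 h duplicates held 38.5 and 43.0 CPM and those of 1 h 52.4 and 81.4. Later libraries held 85.3 (2.5 h), 54.3 and 68.8 (4 h) and 83.3 CPM (6 h). The early and late libraries overlapped, because 1 h replicate 2 was as high as the late ones, and both 0 h libraries lay below all later ones. The late against early log2 fold change was 0.43 (SE 0.24, 95% interval -0.09 to 0.95; adjusted p 0.628).

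Tnfrsf1b (ENSMUSG00000028599, chr4:145213463-145246870, minus strand), the second TNF receptor, ranged from 3.17 to 6.45 CPM in the early libraries and from 2.82 to 8.16 in the late ones. These ranges overlapped throughout, and the log2 fold change was 0.06 (95% interval -0.80 to 0.91; adjusted p 0.977). The ligand Tnfsf10, which encodes TRAIL (ENSMUSG00000039304, chr3:27317028-27342427, plus strand), ranged from 4.25 to 5.76 CPM early and from 4.48 to 6.87 late. Its log2 fold change was also 0.06 (95% interval -0.59 to 0.70; adjusted p 0.970), and its early and late libraries overlapped.

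None of the adaptors was called. Fadd (ENSMUSG00000031077, chr7:144577318-144582463, minus strand), which links death receptors to caspases, stood at 11.8 to 14.7 CPM early. Late libraries held 20.3 (2.5 h), 11.8 and 20.0 (4 h) and 23.5 CPM (6 h). The first-generation library of 4 h stayed at the early level and the 3 late libraries of the second generation lay above all early ones. The log2 fold change was 0.51 (SE 0.24, 95% interval -0.01 to 1.03; adjusted p 0.559). Within the first generation the late minus early difference in log2 CPM was -0.09 and within the second 0.62. Fadd overlaps an antisense gene, Faddos, and 8.80% of its sequences of 30 bases are shared with other genes, so part of its reads is uncertain.

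Tradd (ENSMUSG00000031887, chr8:105258286-105264609, minus strand), the adaptor of the TNF receptor, ranged from 4.25 to 10.1 CPM early and from 7.51 to 9.39 late. Both early extremes were 0 h libraries, replicate 2 and replicate 1, and the log2 fold change was 0.13 (95% interval -0.53 to 0.78; adjusted p 0.932). Ripk1 (ENSMUSG00000021408, chr13:34002363-34037147, plus strand), the kinase at the receptor, was the member with a negative value. The 0 h duplicates held 24.0 and 37.1 CPM, those of 1 h 24.1 and 19.7, and the 4 late libraries between 16.9 and 22.9. The single high value belonged to 0 h replicate 2, the library with granulocyte markers, and the other libraries overlapped. The log2 fold change was -0.34 (SE 0.23, 95% interval -0.83 to 0.16; adjusted p 0.697), and without that library it was -0.11. Ripk1 overlaps Serpinb6a and 2 pseudogenes, and 8.60% of its sequences of 30 bases are shared, most with Gm17084.

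Over the 9 genes, 8 had a positive log2 fold change late against early, beside 48.4% of all genes tested. The median of the 9 was 0.43, against a median of -0.02 over all genes tested. The values of Tnfrsf1b, Tnfsf10 and Tradd lay near 0 and turned sign in some fits without a library. Of the 9, 3 reached an unadjusted p under 0.05 in edgeR's test (Eda2r, Tnfrsf10b and Fas), beside 9.06% of all genes. Since the members were chosen with earlier results known, these counts are a description and not a test of the set.

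**Figure D1:**
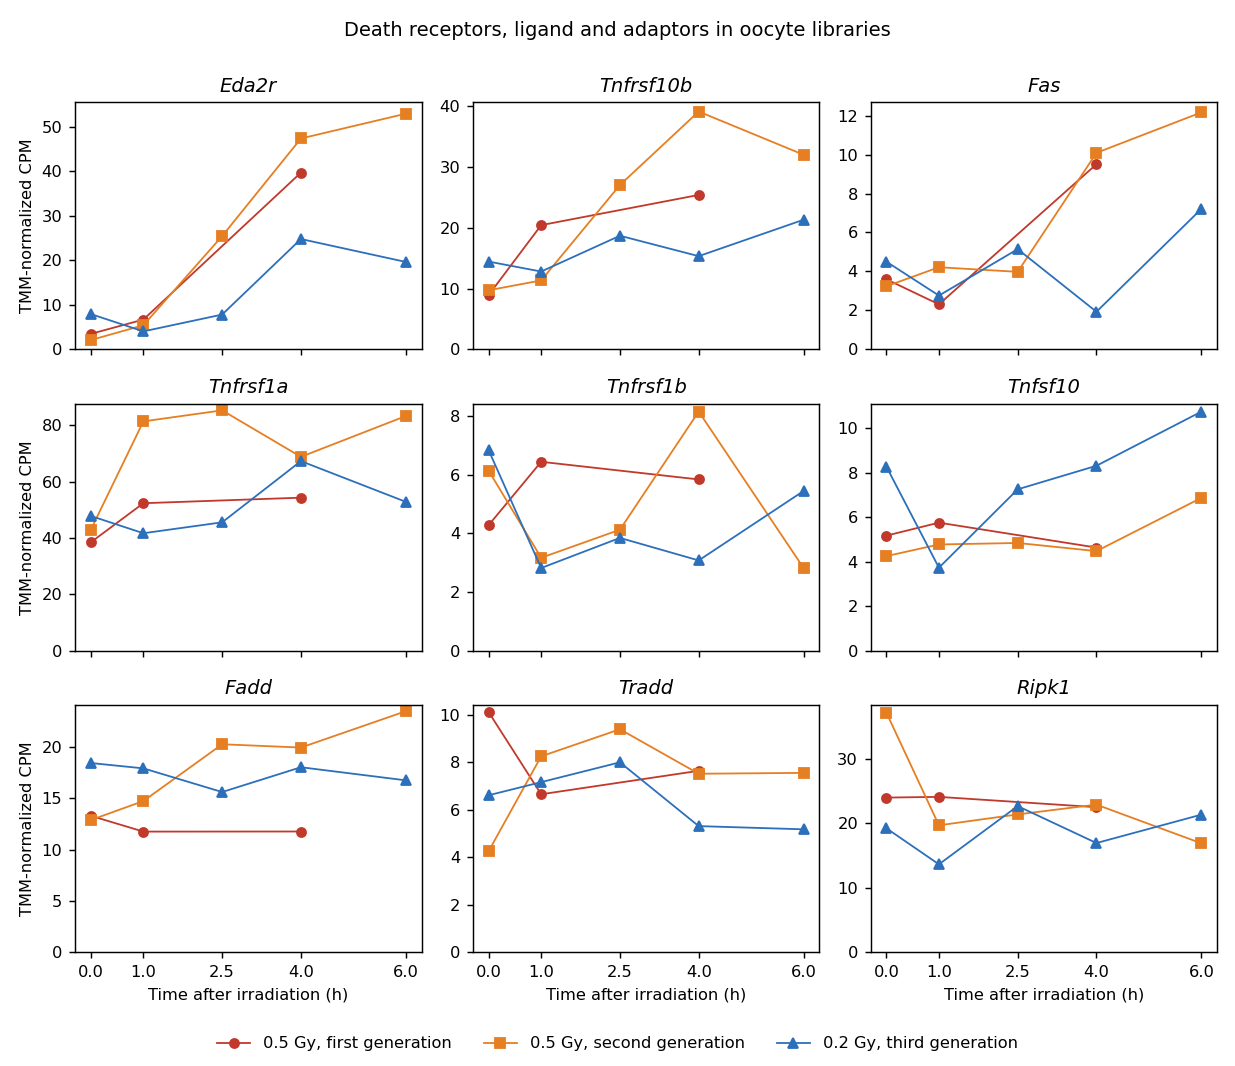
TMM-normalized CPM (y axis, each panel with its own scale from 0) of the 9 genes by time after irradiation in h (x axis). Each point is a library and lines join libraries of a dose and generation. Eda2r climbs from 2.09 to 52.9 CPM in the second generation, while Tradd and Ripk1 show no such climb.

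Each time of 0.5 Gy was then compared with 0 h in a model of the 8 libraries, to follow the order in which the genes moved. These 4 comparisons share the 0 h libraries, and the single libraries of 2.5 and 6 h take their spread from the duplicates. No member was called at 1, 2.5, 4 or 6 h. The share of all 28468 genes called was 0% in each of these comparisons. At an unadjusted p under 0.05, edgeR's test found 2, 3, 3 and 4 of the 9 genes at these times, beside 3.98%, 5.59%, 5.82% and 5.94% of all genes. In DESeq2's Wald test, 0, 1, 2 and 2 of the 9 were called. Of all 46404 genes in that test, 20, 83, 125 and 138 were called.

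Eda2r had the largest value of the 9 at each time in this model, with log2 fold changes of 1.12 (SE 0.36) after 1 h, 3.20 (SE 0.41) after 2.5 h, 3.97 (SE 0.39) after 4 h and 4.28 (SE 0.42) after 6 h. The order at 1 h rested on single libraries. Without 0 h replicate 2, Eda2r stood at 0.83 and Tnfrsf10b at 0.86, and without 1 h replicate 1 Eda2r stood at 0.97 and Tnfrsf1a at 1.02. The adjusted p of Eda2r in edgeR's test was 0.159 after 2.5 h, 0.0631 after 4 h and 0.0701 after 6 h. At 4 and at 6 h it equalled the smallest adjusted p of any gene, which other genes may share. With the generation as a replicate block, Eda2r was called at 4 h (adjusted p 0.0387) and at 6 h (0.0444). Without 0 h replicate 1 it was called at 4 h as well, at a log2 fold change of 4.38 and an adjusted p of 0.0471.

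Tnfrsf10b stood at log2 fold changes of 0.78, 1.56, 1.81 and 1.82 against 0 h at the 4 times in turn. The values from 2.5 to 6 h differed by less than their SE of 0.40 to 0.46. Fas followed another course, with -0.05, 0.24, 1.54 and 1.87 (SE 0.48 to 0.58). Tnfrsf1a stood at 0.73, 1.09, 0.62 and 1.08. In edgeR's test the smallest adjusted p of these 3 genes was 0.565. DESeq2's Wald test called Tnfrsf10b at 4 h (adjusted p 0.0064) and at 6 h. Ripk1 lay below 0 h at all 4 times, between -0.81 and -0.41, with a smallest adjusted p of 0.842. Without 0 h replicate 2, the library with granulocyte markers, its values were -0.10, -0.13, -0.05 and -0.45. The other 4 genes lay between -0.84 and 0.89.

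At 0.2 Gy, Eda2r had its highest values late as well. From 0 to 6 h its libraries held 7.92, 4.03, 7.81, 24.8 and 19.6 CPM. The 4 and 6 h libraries lay above the 3 earlier ones, and the 2.5 h library lay within the range of 0 and 1 h, unlike at 0.5 Gy. The 4 and 6 h libraries were tested against those of 0 and 1 h in a fit of the 11 libraries without 2.5 h. No member was called, while 0.0462% of the 28162 genes tested were called, 13 in number. Eda2r had a log2 fold change of 1.88 (SE 0.46, 95% interval 0.87 to 2.88), with an unadjusted p of 0.00145 and an adjusted p of 0.402 in edgeR's test. It was the only one of the 9 with an unadjusted p under 0.05, beside 7.29% of all genes, and in DESeq2's Wald test it was called (adjusted p 0.0123). The 0 and 1 h libraries of 0.2 Gy held reads on 42767 and 42984 genes, against 36343 to 39439 in the other 11 libraries, and the part of this difference in the result was not tested.

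The libraries of 0.2 Gy in the same order held 14.4, 12.8, 18.7, 15.3 and 21.3 CPM of Tnfrsf10b. The 4 h library was barely above that of 0 h, and the log2 fold change was 0.42 (SE 0.38; adjusted p 0.831). For Fas they held 4.50, 2.76, 5.14, 1.93 and 7.22 CPM. The 4 h library was the lowest and the 6 h library the highest, so the sides overlapped, and the log2 fold change of 0.32 (SE 0.55; adjusted p 0.921) turned to -0.91 without the 6 h library. For the ligand Tnfsf10 they held 8.27, 3.73, 7.25, 8.31 and 10.7 CPM, with a log2 fold change of 0.65 (95% interval -0.28 to 1.59; adjusted p 0.766). Here the low value at 1 h stood apart from the other 4.

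The remaining 5 genes at 0.2 Gy had log2 fold changes from -0.41 (Tradd) to 0.41 (Tnfrsf1a), and none had an adjusted p under 0.80. Tnfrsf1a ranged from 41.7 to 67.3 CPM over the 5 libraries, Tnfrsf1b from 2.82 to 6.84, Fadd from 15.6 to 18.4, Tradd from 5.17 to 7.99 and Ripk1 from 13.6 to 22.6. As for Eda2r, the 4 and 6 h libraries of Tnfrsf1a, at 67.3 and 52.85 CPM, lay above all earlier ones. Those of Tnfsf10 did so too, though 4 h, at 8.31 CPM, barely exceeded 0 h, at 8.27. Those of Tradd, at 5.31 and 5.17 CPM, lay below all earlier ones. The highest Fadd library at this dose lay below the 23.5 CPM of 6 h at 0.5 Gy. All Fadd libraries of 0.2 Gy, that of 0 h included, lay above the early ones of 0.5 Gy, which held 11.8 to 14.7 CPM.

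The same 4 and 6 h against 0 and 1 h contrast at 0.5 Gy gave Eda2r a log2 fold change of 3.38 (SE 0.36) in that fit. The difference between the doses, 0.2 Gy minus 0.5 Gy, was -1.51 (SE 0.57, 95% interval -2.74 to -0.27), with an unadjusted p of 0.0205 and an adjusted p of 0.564 in edgeR's test. None of the 9 genes was called for a difference between doses, and 0.032% of the 28162 genes tested were called. Eda2r was the only member with an unadjusted p under 0.05, beside 8.14% of all genes. DESeq2's Wald test called none of the 9, beside 127 of all 47611 genes in it. Tnfrsf10b differed by -0.93 (95% interval -1.98 to 0.11) and Fas by -1.34 (95% interval -2.83 to 0.15). These intervals are wide, since each side of 0.2 Gy holds 2 libraries. At 0 h, Eda2r held 7.92 CPM in the 0.2 Gy library and 3.48 and 2.09 CPM in those of 0.5 Gy. Dose and generation cannot be told apart in these differences.

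**Figure D2:**
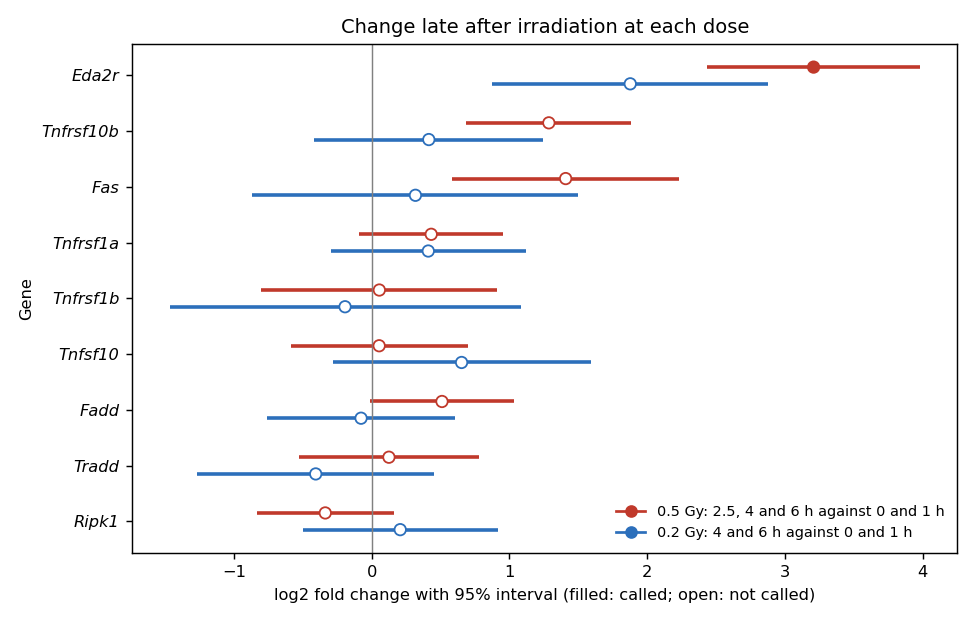
log2 fold change (x axis) with its 95% interval (horizontal lines) for each of the 9 genes (y axis) late after 0.5 Gy and 0.2 Gy, from edgeR. Eda2r at 0.5 Gy, at 3.21, is the filled point, which marks a called gene, and its value at 0.2 Gy is 1.88.

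Levels were compared between genes as TPM, the authors' estimate per length. Over the 13 libraries the mean level was 38.2 TPM for Tnfrsf1a, 3.15 for Tradd, 2.64 for Ripk1, 2.27 for Tnfrsf10b, 2.06 for Eda2r, 1.44 for Fadd, 1.34 for Fas, 0.576 for Tnfrsf1b and 0.416 for Tnfsf10. Short transcripts carried much of some of these levels. With transcripts under 1000 bases left out, a choice made after seeing the data, Tnfrsf1a kept 23.5% of its TPM and Tradd 47.6%, and their mean levels were 8.99 and 1.50 TPM. Tnfrsf1a remained the highest of the 9 in every library on this scale, where its lowest value was 6.01 TPM and the highest of any other member was 5.00.

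The next 6 genes lay close together on that scale, with means from 2.27 TPM for Tnfrsf10b to 1.26 for Fas, and their order depended on the transcripts counted. Their ranges over libraries overlapped, so that neighbours in the order could not be separated. Tnfrsf1b and Tnfsf10 were lowest on both scales, at 0.439 and 0.343 TPM without short transcripts. As a ratio of the highest to the lowest library, Eda2r had the widest range, from 0.172 TPM in 0 h replicate 2 to 6.61 TPM at 6 h of 0.5 Gy with all transcripts. By 6 h it was second among the 9, behind Tnfrsf1a at 62.6 TPM. That rank counts the retained-intron transcripts Eda2r-203 and Eda2r-204, at 2.74 and 1.60 TPM in the 6 h library. The protein-coding Eda2r-201 held 2.23 TPM there, below Tnfrsf10b-201 at 3.32 and Fas-201 at 3.10. At 0 h of 0.5 Gy, at 0.329 and 0.172 TPM, Eda2r was among the lowest.

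**Figure D3:**
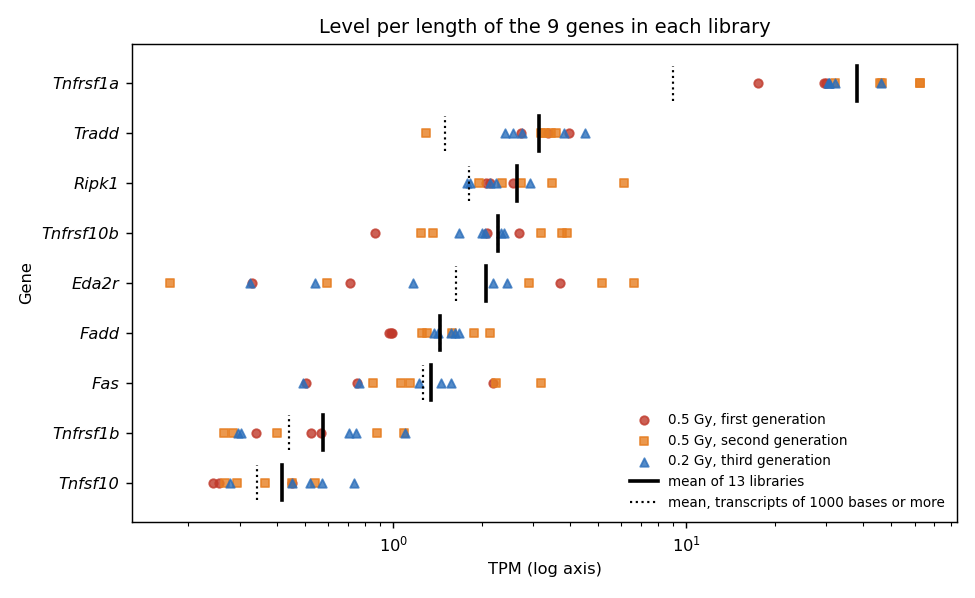
TPM (x axis, log scale) of each of the 9 genes (y axis) in each of the 13 libraries, with the mean as a black line and the mean over transcripts of 1000 bases or more as a dotted line. Tnfrsf1a is highest on both means, at 38.2 and 8.99 TPM, and the points of Eda2r spread from 0.172 to 6.61.

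The reads of Eda2r came mostly from its long protein-coding transcript, Eda2r-201 (4752 bases), with 65.0% of the gene's reads over all libraries. The retained-intron transcript Eda2r-203 took 30.8%. Its share was 19.1% to 44.9% in the early libraries of 0.5 Gy and 19.7% to 38.5% in the late ones, ranges that overlap. Eda2r-201 held 51.3% to 80.9% early and 57.5% to 74.5% late, so both transcripts were higher late. In TPM, Eda2r-201 stood at 0.101 and 0.109 in the 0 h duplicates of 0.5 Gy and reached 2.23 by 6 h, below the 2.74 of Eda2r-203.

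**Figure D4:**
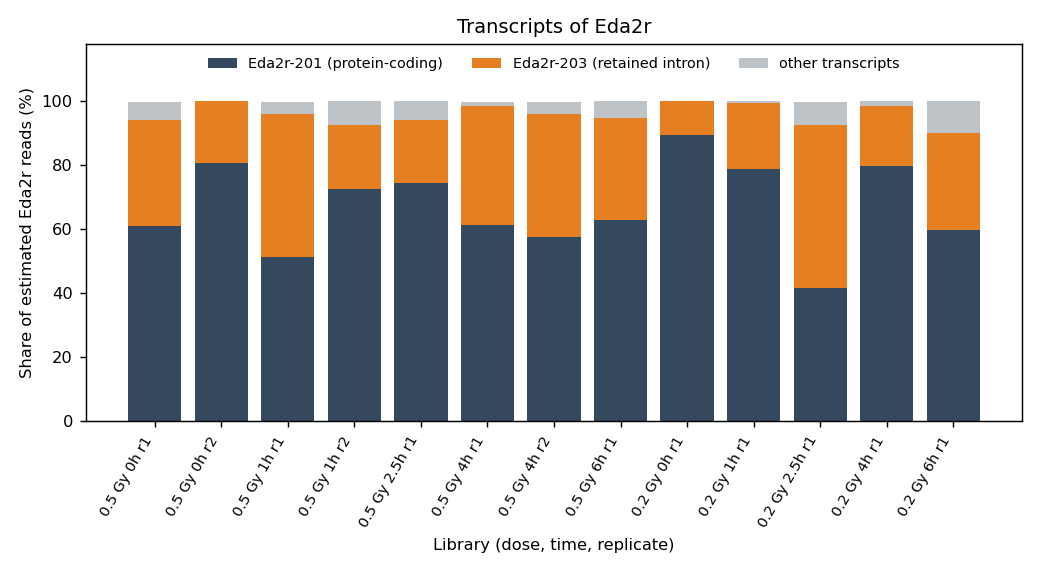
Share of the estimated reads of Eda2r in percent (y axis) on its transcripts in each library (x axis, labelled by dose, time and replicate). The share of Eda2r-203, the retained-intron transcript, ranges from 10.6% to 50.9% and does not separate early from late libraries.

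Tnfrsf10b-201 held 92.5% of its gene's reads, Fas-201 98.4%, Tnfrsf1b-201 98.8% and Tnfsf10-201 96.9%, and Fadd has 1 transcript. For Fas, 2 of the 5 annotated transcripts had estimates. Ripk1 was the exception, with 45.9% of its reads on Ripk1-201 and 39.8% on the longer Ripk1-203, both protein-coding. Tnfrsf1a-201 held 84.1% and Tradd-201 83.9%. With reads of this length, the split between transcripts of a gene is an estimate.

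The wider pathway was examined in 41 further genes, of which 35 could be tested late against early at 0.5 Gy. None of these was called in edgeR's test, beside 0.128% of all genes. Of the 35, 5 had an unadjusted p under 0.05, beside 9.06% of all genes, and 22 had a positive value, beside 48.4% of all genes. Their median was 0.15, beside -0.02 over all genes. By role, 0 of 3 tested ligands, 0 of 9 other receptors and decoys, 0 of 16 adaptors, inhibitors and effectors and 0 of 7 NF-kB feedback targets were called. The ligands Fasl, Tnf, Lta, Ltb and Tnfsf11 and the receptor Tnfrsf25 had too few reads to be tested. Against 0 h none of the 39 genes tested was called, beside 0% of all genes. At 0.2 Gy and between the doses none of the 37 tested was called, beside 0.0462% and 0.032% of all genes.

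The largest value among them was that of Pidd1, a death-domain protein that is a known p53 target and platform for caspase activation. At 0.5 Gy the 0 h duplicates held 5.29 and 4.86 CPM and those of 1 h 3.85 and 5.56. The late libraries, with 10.1 (2.5 h), 11.5 and 32.9 (4 h) and 21.4 CPM (6 h), lay above all of them. Its log2 fold change was 1.95 (SE 0.37, 95% interval 1.13 to 2.76), with an adjusted p of 0.0936. At 0.2 Gy it was 0.20 (SE 0.42; adjusted p 0.939), and the difference between the doses was -1.96 (SE 0.53; unadjusted p 0.00297; adjusted p 0.502).

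Edaradd, the adaptor of the ectodysplasin receptor Edar, had the next value, with a log2 fold change of 1.51 (SE 0.61, adjusted p 0.495), and its libraries ranged from 0.608 to 10.0 CPM. Edar itself stood at 1.47 (SE 0.76, adjusted p 0.605), and in 12 of the 13 libraries it was under 1.5 CPM, with 2.85 at 2.5 h of 0.5 Gy. Eda, which encodes the ectodysplasins, stood at 0.33 (SE 0.37, adjusted p 0.826). Downstream, Casp8, the initiator caspase, stood at -0.18 (adjusted p 0.831) and its inhibitor Cflar at -0.07 (0.942).

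**Figure D5:**
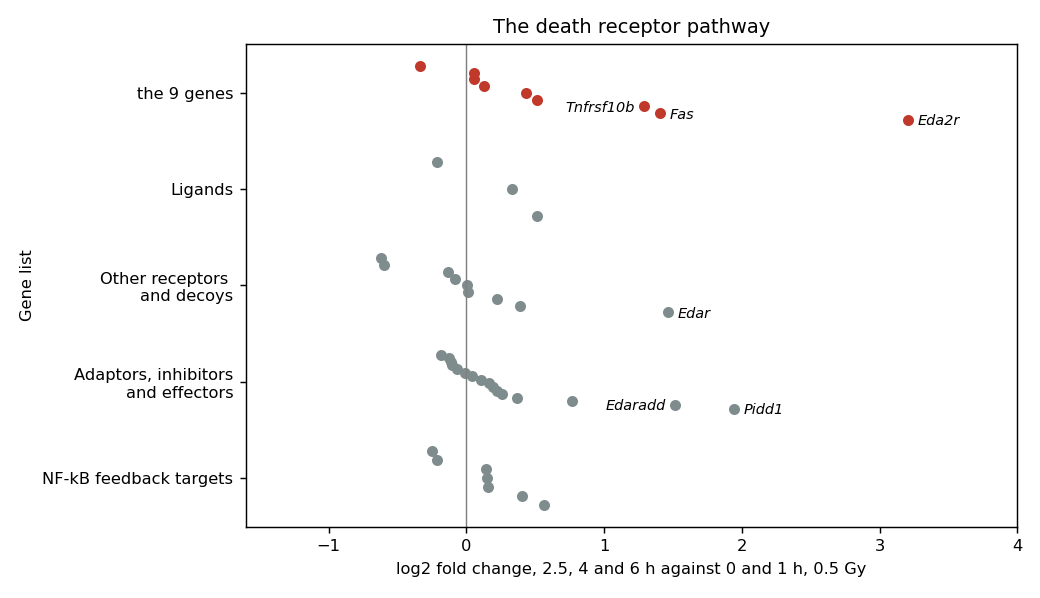
log2 fold change late against early at 0.5 Gy (x axis) of the 9 genes and of the tested genes of 4 pathway lists (y axis, points spread vertically for legibility). Eda2r lies apart at 3.21, followed by Pidd1 at 1.95, and most genes of the lists lie near 0.

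The genes whose log2 CPM ran most like that of Eda2r over the 13 libraries, of 22588 genes, were 9930012K11Rik (Pearson r 0.964), Plcxd1 (0.953), Lhx3 (0.952), Inka2 (0.944) and Mob3a (0.934). For Tnfrsf10b they were Ifnl2 (0.954), Inka2 (0.935), Zfp408 (0.921), Slc35e4 (0.921) and Dennd2c (0.909), and Inka2 stood in both lists. For Fas the likeness was weaker, with Pdhx (0.862), Epas1 (0.858), Net1 (0.847), Gm29968 (0.835) and Pnlip (0.829). Among the 9 genes themselves, Eda2r and Tnfrsf10b were most alike, at 0.889. Fas stood at 0.643 with Eda2r and 0.661 with Tnfrsf10b, and Ripk1 at -0.32 with Eda2r. These values describe 13 libraries that share doses, times and normalization, and carry no test.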

How the data were processed

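Bulk RNA-seq was analysed in 13 oocyte libraries. The authors made the estimated counts per transcript with Salmon on the mouse Ensembl transcripts and deposited them without normalization between libraries. The deposited TPM values are also the authors' Salmon output. The deposited tables of the authors' own comparisons (DESeq2 1.24.0, per the labels) and of pooled normalized counts were not used.

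Per gene, the estimated counts of all deposited transcripts that GENCODE lists for it on GRCm38 were added up and rounded. Of 130740 transcripts, 402 had no gene and held at most 0.495% of the reads of a library. Counts were normalized with TMM, filtered with filterByExpr and tested with edgeR 4.0.16 (quasi-likelihood) in R 4.3.3, with Benjamini-Hochberg adjustment over all genes tested. Intervals are 95% intervals. Log2 CPM used a prior count of 2. DESeq2 1.42.0, limma 3.58.1, Python 3.11.15, pandas 2.3.3, numpy 2.4.6 and matplotlib 3.10.9 were also used. The steps were tested on simulated data.

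Members, lists and the split into early and late libraries were chosen with earlier results of these data known. Named were all 9 members, the pathway genes called in any comparison and the 3 with the largest absolute log2 fold change late against early, and the 5 genes most like Eda2r, Tnfrsf10b and Fas. Eda, Casp8 and Cflar were named after their values were seen. Alternatives were DESeq2 size factors, no filter, DESeq2's Wald test with its beta prior, a replicate block, length-scaled TPM, 0 h alone as the early side, another prior count and fits without each library in turn.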

Additional observations from a re-analysis of the deposited data

How the results depend on the processing

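Late against early at 0.5 Gy, Eda2r was the 1 member called in every alternative but 2. DESeq2's Wald test called 3 (Eda2r, Tnfrsf10b and Fas), beside 200 of 46404 genes. The fits without a library in turn called 1 to 2, the higher number without 1 h replicate 1. Against 0 h, where none was called, 1 was called without a filter on low counts at 2.5, 4 and 6 h, DESeq2's Wald test called 1, 2 and 2 at these times, and fits without a library called 0 to 1 at 4 h. With the replicate block, 1 gene (Eda2r) was called at 4 h and 1 at 6 h, and the block changed no other call of a member. Deviations of replicates with the same number correlated at 0.124 between 0 and 1 h, 0.0759 between 0 and 4 h and 0.106 between 1 and 4 h over 28468 genes, so the numbers were not taken as pairs. At 0.2 Gy DESeq2's Wald test called 1 (Eda2r), beside 152 of 47611 genes. The cause of these changes was not tested.

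Genes called late against early numbered 29 with the reported settings, 58 without a filter, 200 by DESeq2's Wald test, 18 with the replicate block, 11 with 0 h alone as the early side and 10 to 37 without a library. At 0.2 Gy they numbered 13, with 32, 152 and 15 under the first 3 of these and 1 to 18 without a library. Between the doses they numbered 9, with 22, 127 and 13, and 0 to 13. Against 0 h no gene was called, but without a filter 30, 56, 80 and 78 were at 1, 2.5, 4 and 6 h, and by DESeq2's Wald test 20, 83, 125 and 138. Without a filter the median log2 fold change of all genes was -0.16 at 0.2 Gy and -0.18 between the doses. Fits without a filter and DESeq2's Wald test covered 46404 genes late against early and against 0 h. At 0.2 Gy and between the doses they covered 47611.

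Values turned sign in 36 of 864 refits of a member, none of them called. With length-scaled TPM these were Fadd at 1 h (-0.0066) and at 0.2 Gy (0.014), Tnfsf10 at 4 h (0.33) and between doses (-0.021), Tnfrsf1b at 0.2 Gy (0.070) and Tnfrsf1a between doses (-0.15), and without a filter Tnfsf10 at 4 h (0.019). Without a library, the ranges that crossed 0 late against early were -0.23 to 0.27 for Tnfrsf1b, -0.11 to 0.13 for Tnfsf10 and -0.053 to 0.32 for Tradd. At 1 h they were -0.57 to 0.33 for Fas, -0.69 to 0.30 for Tnfrsf1b, -0.16 to 0.20 for Fadd and -0.41 to 0.81 for Tradd, at 2.5 h -0.061 to 0.19 for Tnfsf10 and -0.072 to 1.15 for Tradd, at 4 h -0.15 to 0.11 for Tnfsf10, -0.16 to 0.63 for Fadd and -0.38 to 0.84 for Tradd, and at 6 h -0.36 to 0.86 for Tradd. At 0.2 Gy they were -0.91 to 0.96 for Fas, -0.69 to 0.63 for Tnfrsf1b and -0.011 to 0.52 for Ripk1, and between doses -0.21 to 0.23 for Tnfrsf1a and -0.85 to 0.47 for Tnfrsf1b. Eda2r stayed between 2.99 and 3.47 late against early without a library, 1.48 to 2.49 at 0.2 Gy and -1.90 to -0.90 between doses. With single libraries at 2.5 and 6 h of 0.5 Gy, the lone library is assumed to vary like the duplicates. At 0.2 Gy, 0 and 1 h form the early side and 4 and 6 h the late side. The spread in that fit is shared by both doses and includes change over time.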
